A study of Mus musculus with 12 samples.

Results

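The 35 genes described here encode the enzymes, carriers and regulators of mitochondrial and peroxisomal fatty acid oxidation. They were chosen by symbol from a list of this pathway, and all 35 were found among the 54532 genes listed in the files. All 35 passed the filter on low counts that left 16076 genes for testing. The RNA came from pancreatic islets, the endocrine clusters of the pancreas, of male C57BL/6 mice. The groups, with 3 libraries each, were a beta-cell-selective Sirt3 knockout on a high fat diet (HFD KO), wild type on that diet (HFD WT), the same knockout on a standard diet (STD KO), and wild type on it (STD WT). SIRT3 is a protein deacetylase of mitochondria whose substrates include enzymes of fatty acid oxidation. The high fat diet held 60% of its calories as fat and was given for 36 weeks, after 5 or 6 weeks of standard food in HFD KO mice and after 4 weeks in HFD WT mice, so genotype and this earlier period cannot be told apart under that diet. The standard diet held 6.2% fat, and every sample was labelled as 40 weeks old, although the feeding periods given for HFD KO mice add up to more than that. The labels name neither the driver of the deletion nor whether the wild type mice carried any of its alleles. They do not say which animals or pools the libraries came from, so p-values measure only the spread between libraries. Islet cells other than beta cells keep Sirt3, and RNA of all islet cells was sequenced together.

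Fatty acids are first joined to coenzyme A by acyl-CoA synthetases. Long chains then enter mitochondria through the carnitine shuttle and are shortened in repeated rounds of dehydrogenation, hydration, a further dehydrogenation and thiolysis. Peroxisomes run a parallel spiral for very long, branched and dicarboxylic chains, with either of a pair of bifunctional enzymes, Ehhadh or Hsd17b4, at its middle steps. In islets glucose lowers fatty acid oxidation acutely, since malonyl-CoA inhibits Cpt1a, the gate of the shuttle, and the lipid signals that remain are known to affect insulin secretion.

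Total counts lay between 16037709 and 20864920 per library. Sirt3 itself had 7.85, 11.5 and 6.21 CPM (counts scaled to library size, with TMM factors) in HFD KO libraries 1 to 3, against 11.4, 9.30 and 11.8 CPM in HFD WT libraries. It had 6.59, 5.97 and 5.86 CPM in STD KO libraries, against 9.04, 11.3 and 11.5 CPM in STD WT libraries. The library labelled HFD KO 2 therefore lay within the range of wild type. Tph1, an enzyme of serotonin synthesis, was at 43.5 CPM in the library labelled STD WT 3, against 0.697 and 1.33 CPM in the other two STD WT libraries. Its level was 0.894 to 1.29 CPM in HFD WT and 382 to 595 CPM in STD KO libraries. In HFD KO libraries it was 701 to 1149 CPM, with HFD KO 2 at 701 CPM. Results of the members below are also given without HFD KO 2 and STD WT 3 where that changed a call. Calls of genes outside the members were not followed in this way. STD KO 1 stood apart by hepatocyte markers: albumin (Alb) was at 2176 CPM in it, against 27.9 to 54.3 CPM in the other 11 libraries, and Fgb at 157 CPM, against 1.79 to 3.31 CPM. Apoa1, a further hepatocyte marker, was not raised in STD KO 1 alone. It was at 165 CPM there, 116 CPM in STD KO 3 and 25.7 CPM in HFD KO 1. The remaining libraries had 2.28 to 10.5 CPM of it. In STD WT 3, Ehhadh was the lowest and Pdk4 the highest of the 3 STD WT libraries.

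Between knockout and wild type islets a few genes of the pathway moved, and most did not pass the test. Ehhadh, the peroxisomal L-bifunctional enzyme, was higher in knockout islets under both diets, 4.20-fold under the high fat diet and 3.57-fold under the standard diet. Under the high fat diet the synthetases Acsl4 and Acsl5 rose, the synthetase Acsl3 fell, and the coactivator Ppargc1a fell. In all, 5 of 35 members passed an adjusted p of 0.05 between HFD KO and HFD WT (3 higher and 2 lower), where 7.4% of all genes tested did (3.9% higher and 3.5% lower). Between STD KO and STD WT 1 of 35 passed, on the higher side, where 1.71% did (1.34% higher and 0.367% lower). An unadjusted p under 0.05 was found for 8 members under the high fat diet, where 24.3% of all genes had one, and for 6 under the standard diet, where 8.66% had one. P-values here and below are from edgeR's quasi-likelihood test, adjusted by Benjamini-Hochberg over all 16076 genes. In RNA of whole islets, fewer cells of a type and less RNA per cell cannot be told apart.

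The promoters of the 4 members that moved most firmly are shown to place those genes and to let their start regions be compared. Each is the 250 bases before the RefSeq start on the gene's own strand (GRCm38.p6), at chr16:21787835-21788084 on the minus strand for Ehhadh, chrX:142390536-142390785 on the minus strand for Acsl4, chr19:55253119-55253368 on the plus strand for Acsl5 and chr5:51567726-51567975 on the minus strand for Ppargc1a. Capitals mark a CCAAT box (CCAAT) or a GC box (GGGCGG) read on either strand.
Ehhadh: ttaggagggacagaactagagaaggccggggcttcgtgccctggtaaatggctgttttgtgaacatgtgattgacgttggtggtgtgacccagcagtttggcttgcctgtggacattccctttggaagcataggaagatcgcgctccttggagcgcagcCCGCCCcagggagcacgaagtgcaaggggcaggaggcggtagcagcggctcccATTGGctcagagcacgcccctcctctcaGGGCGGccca
Acsl4: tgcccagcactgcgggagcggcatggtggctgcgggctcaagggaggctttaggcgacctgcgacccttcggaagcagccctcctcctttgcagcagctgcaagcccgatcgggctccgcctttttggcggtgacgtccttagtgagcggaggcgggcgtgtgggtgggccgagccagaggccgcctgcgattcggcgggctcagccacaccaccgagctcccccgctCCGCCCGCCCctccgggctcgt
Acsl5: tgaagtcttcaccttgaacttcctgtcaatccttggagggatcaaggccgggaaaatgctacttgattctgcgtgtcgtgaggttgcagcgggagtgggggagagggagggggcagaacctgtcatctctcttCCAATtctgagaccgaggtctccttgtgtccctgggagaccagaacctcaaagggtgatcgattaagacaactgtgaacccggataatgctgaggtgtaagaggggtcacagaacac
Ppargc1a: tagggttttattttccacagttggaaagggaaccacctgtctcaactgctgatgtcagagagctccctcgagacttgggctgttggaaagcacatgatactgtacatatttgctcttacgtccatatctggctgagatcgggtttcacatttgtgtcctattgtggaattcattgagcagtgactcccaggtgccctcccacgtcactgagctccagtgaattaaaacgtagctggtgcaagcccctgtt
Ehhadh had GC boxes 91 and 10 bases before its start and a CCAAT box 38 bases before it. Acsl4 had 2 GC box matches, overlapping by 2 bases, that began 22 and 18 bases before its start, and its window was the richest of the 4 in G and C, at 70.8% against 60.4% for Ehhadh, 52.8% for Acsl5 and 48.0% for Ppargc1a. Acsl5 had a single CCAAT box 117 bases before its RefSeq start. The Acsl5 window lies inside the gene span given for it below, which begins further upstream, so it depends on the start chosen. Neither motif was found in the Ppargc1a window. Of 32851 windows of the same length in RefSeq, 33.85% held CCAAT and 32.74% held GGGCGG, and among the 33 windows of the 31 members with an entry 17 held the first and 21 the second.

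Both strands were also searched for a STAT5-type site, TTCNNNGAA, since Ehhadh is a known gene of the prolactin and STAT5 response of islets. The 4 windows shown held none, and 7.02% of all windows held one. Among the members the motif was found for Cpt2, Hadha and Hadhb, where Hadha and Hadhb share the same site at chr5:30155128-30155136, in the stretch of 272 bases between their starts on opposite strands. The nuclear receptor half-site AGGTCA repeated in direct order with 1 base between, as PPAR receptors bind it, was in 0.03% of all windows and in 0 of the 33 member windows. The half-site alone was in 14.02% of all windows and in those of Acadm, Acadvl, Cpt1a, Cpt1c and Echs1. No match says only that these letters are not in the window.

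**Figure D1:**
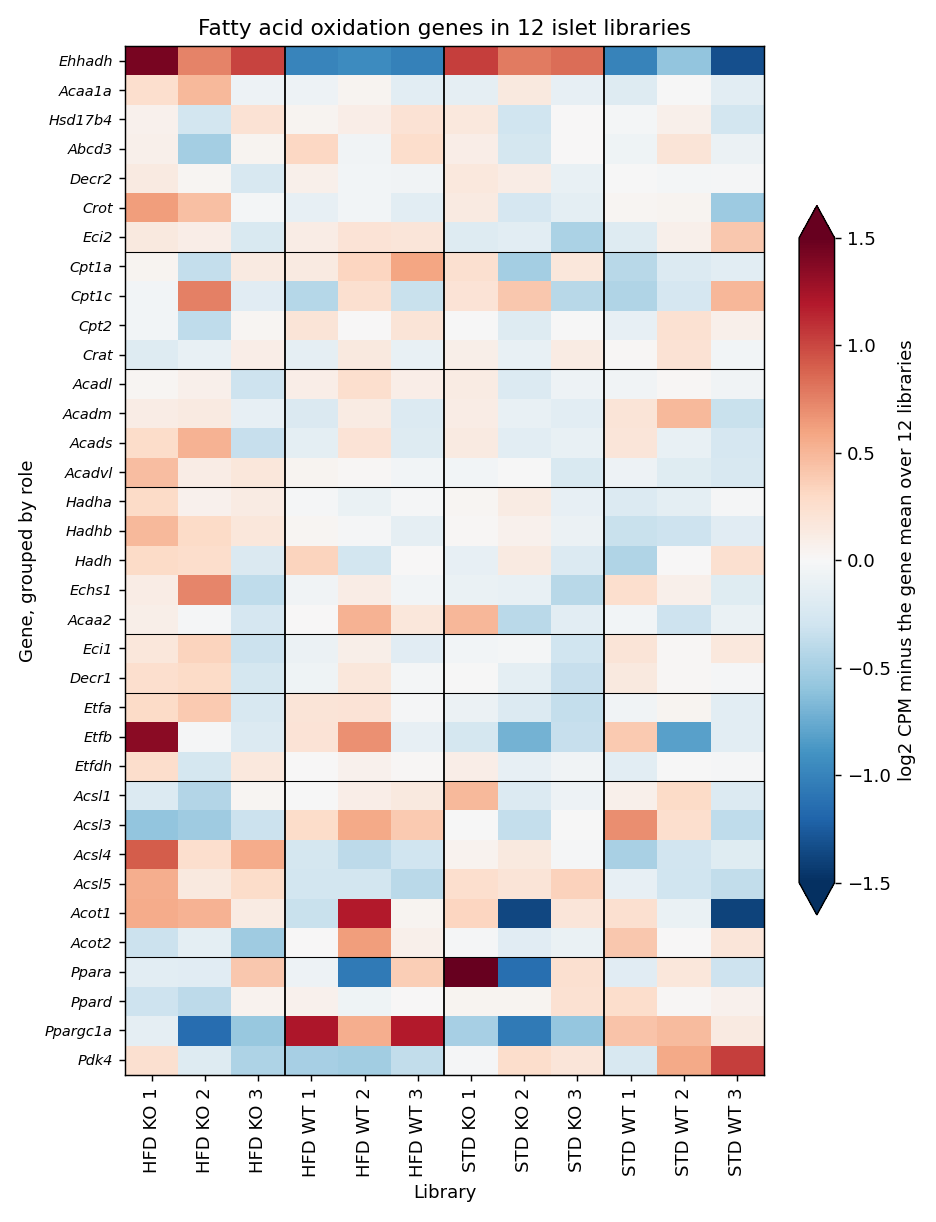
Level of each of the 35 genes in each of the 12 libraries as log2 CPM minus the gene's mean over the libraries (red higher, blue lower, limited at 1.5 either way), with genes grouped by role and libraries by group. Ehhadh is high in all 6 KO libraries and low in all 6 WT libraries, Ppargc1a shows the opposite order, and most other genes show no split by group.

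Levels per gene length, in FPKM as deposited, set the order of the members in these islets. Hadh, the short-chain hydroxyacyl-CoA dehydrogenase whose loss causes hyperinsulinism in people, was the highest, with a mean of 228 FPKM over the 12 libraries and a range of 176 to 256 FPKM. Its lowest library stood above the highest of every other member. Etfa, the alpha subunit of the electron transfer flavoprotein, averaged 94.6 FPKM, Hadha and Hadhb of the trifunctional protein 90.3 and 79.6 FPKM, and Abcd3, a peroxisomal fatty acyl-CoA importer, 84.5 FPKM. The ranges of these 4 neighbours overlapped. Most other members lay between the 54.8 FPKM of the peroxisomal thiolase Acaa1a and the 12.5 FPKM of the synthetase Acsl1.

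At the lower end, Ppargc1a and Cpt1c, a carnitine palmitoyltransferase form best known from the brain, both averaged 1.82 FPKM. Ppara, the fatty acid receptor that drives this pathway in liver, was the lowest at 0.494 FPKM, with 5 to 45 counts per library. Its relative Ppard averaged 22.0 FPKM, and the ranges of the 2 receptors did not overlap (0.192 to 1.70 against 14.9 to 29.0 FPKM). Etfb, the beta subunit of the flavoprotein, was listed at 1.09 FPKM from 5 to 23 counts per library, far under its partner Etfa. Its count is uncertain, since 53.0% of its exonic bases overlap Gm45233 on the same strand and the counting rule is not given in the sources used here.

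**Figure D2:**
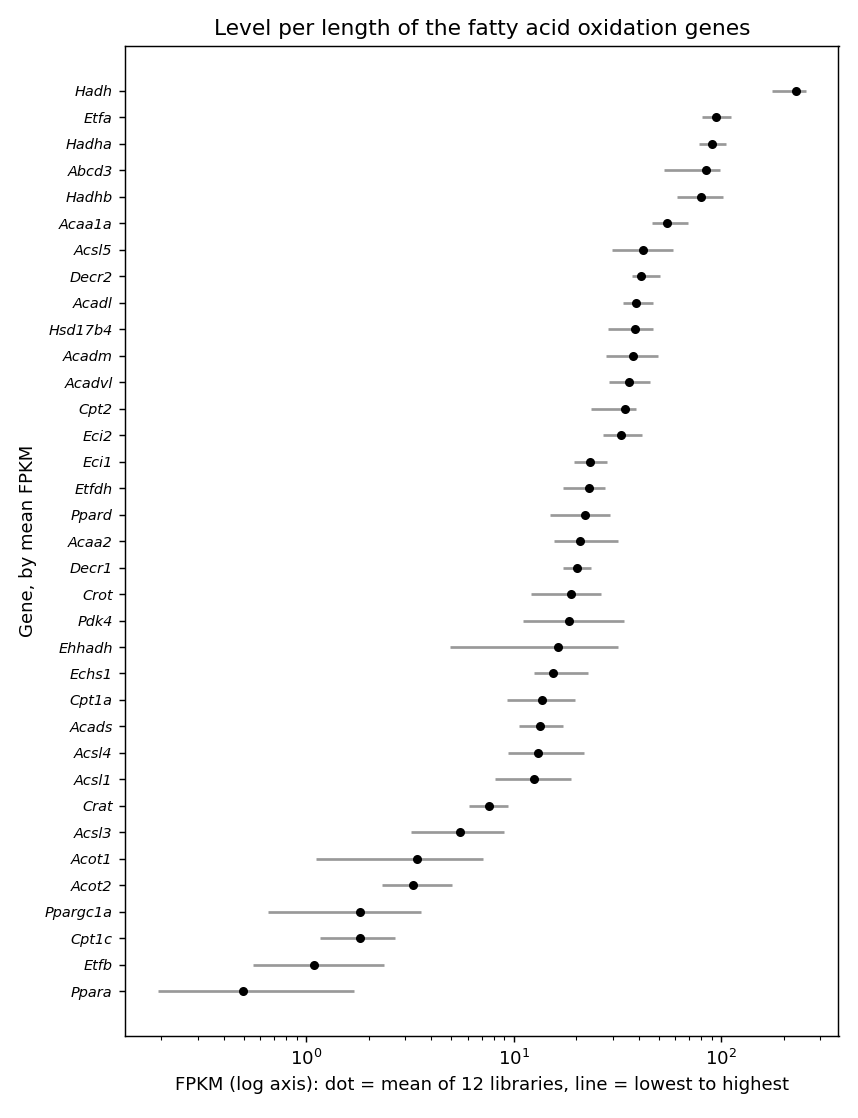
Mean FPKM over the 12 libraries (dot) and the lowest and highest library (line) for each of the 35 genes on a log axis, ordered by mean. Hadh stands alone at the top at 228 FPKM, Ppara is lowest at 0.494 FPKM, and Ehhadh has a wide range, from 4.93 to 31.9 FPKM.

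In the peroxisomal spiral, Ehhadh had the largest change of all members under both diets. Ehhadh (ENSMUSG00000022853, chromosome 16, 21761287 to 21787807, minus strand of mm10) had 104, 64.6 and 77.7 CPM in HFD KO libraries 1 to 3, against 19.4, 20.1 and 19.0 CPM in HFD WT libraries. It had 79.1, 66.2 and 69.0 CPM in STD KO libraries, against 19.3, 25.5 and 15.4 CPM in STD WT libraries. The lowest KO library was more than double the highest WT library, and the library labelled HFD KO 2, whose Sirt3 was at the WT level, lay with the other KO libraries for Ehhadh. The log2 fold change was 2.07 under the high fat diet (SE 0.20, adjusted p = 0.000173, edgeR) and 1.83 under the standard diet (SE 0.20, adjusted p = 0.000658, edgeR). Without STD KO 1, the library with the highest Alb, Fgb and Apoa1, the standard diet value was 1.75 (adjusted p = 0.00299, edgeR). The standard diet change passed in each of the 12 fits that left out 1 library. No fit left out STD KO 1 and STD KO 3 together. The values of the 2 diets with all libraries differed by 0.24, and this difference did not pass the interaction test of edgeR (adjusted p = 0.81).

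Hsd17b4, the D-bifunctional enzyme that carries out the same steps on most peroxisomal substrates, had overlapping groups. It averaged 40.6 ± 6.77 CPM in HFD KO and 43.7 ± 2.61 CPM in HFD WT libraries, and 39.3 ± 6.24 CPM in STD KO and 38.4 ± 4.67 CPM in STD WT libraries (SD, n = 3 each). Its log2 fold change was -0.10 (SE 0.16) under the high fat diet and 0.04 (SE 0.16) under the standard diet. Per gene length, Ehhadh stood at a ratio to Hsd17b4 of 0.721 ± 0.145 in HFD KO and 0.160 ± 0.012 in HFD WT islets, and of 0.653 ± 0.061 in STD KO and 0.184 ± 0.026 in STD WT islets (SD, n = 3 each). Ehhadh thus stayed under Hsd17b4 in FPKM in every library, and every KO library had the higher ratio. This pair was set side by side after its values were seen.

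The thiolase Acaa1a, which ends each peroxisomal round, had 77.6, 90.7 and 61.8 CPM in HFD KO libraries, against 61.8, 67.0 and 58.3 CPM in HFD WT libraries. These groups overlapped, and the log2 fold change of 0.30 did not pass (SE 0.15, adjusted p = 0.238, edgeR). About 12.4% of the 50-base words in its transcripts are shared with Acaa1b, so the counting could split reads between them. Crot, which makes carnitine esters of shortened chains for export from peroxisomes, had 64.1, 56.8 and 40.6 CPM in HFD KO libraries, against 38.1, 40.2 and 37.3 CPM in HFD WT libraries. The groups did not touch, but the log2 fold change of 0.48 did not pass either (SE 0.20, adjusted p = 0.158, edgeR). Abcd3, the reductase Decr2 and the isomerase Eci2, the last with a log2 fold change of -0.39 between STD KO and STD WT (SE 0.16, adjusted p = 0.481, edgeR), did not pass under either diet. Of the 7 peroxisomal members, 1 passed under each diet, in each case Ehhadh.

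**Figure D3:**
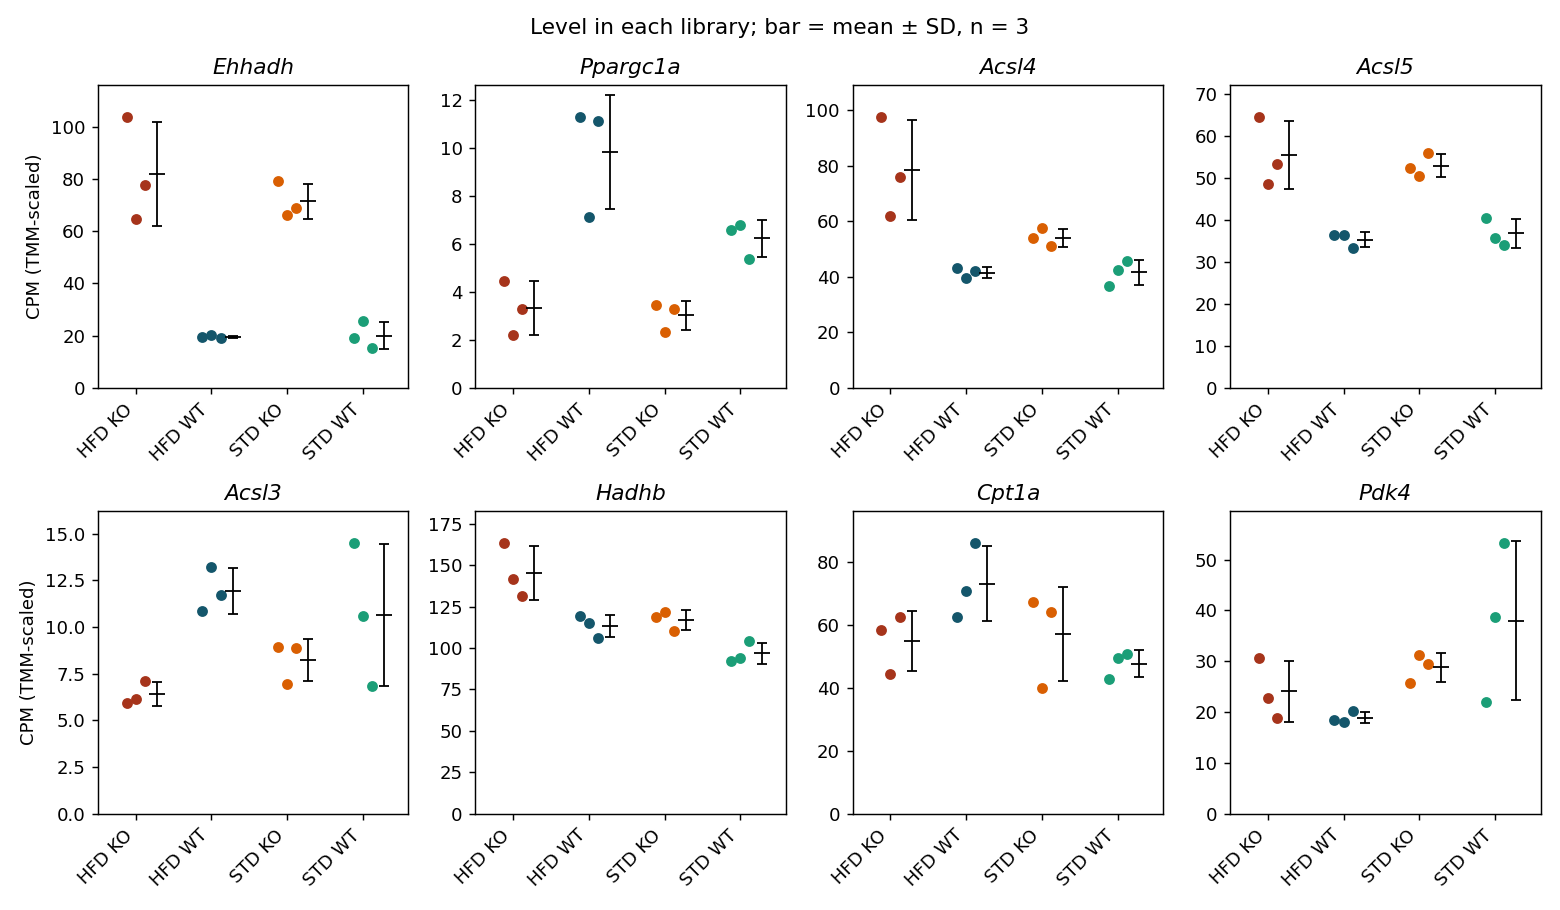
CPM of 8 genes in each library (points) with the group mean ± SD (bars, n = 3), each panel starting at 0 and running from HFD KO through HFD WT and STD KO to STD WT. The KO points of Ehhadh, Acsl4 and Acsl5 lie above the WT points and those of Ppargc1a below them under both diets, while Acsl3 separates only under the high fat diet and Pdk4 overlaps between genotypes.

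The 6 synthetases and thioesterases, which set the supply of activated fatty acid, held 3 of the 5 members that passed under the high fat diet. Among all genes tested 7.4% passed there. The 3 did not share a direction, with 2 higher and 1 lower in KO, and the median log2 fold change of the 6 was -0.16. Acsl4 (ENSMUSG00000031278, chromosome X, 142317993 to 142390535, minus strand) prefers arachidonic and other long polyunsaturated acids. It had 97.3, 61.8 and 76.0 CPM in HFD KO libraries, against 43.1, 39.4 and 41.9 CPM in HFD WT libraries. It had 53.8, 57.5 and 51.0 CPM in STD KO libraries, against 36.8, 42.4 and 45.8 CPM in STD WT libraries. KO and WT did not overlap under either diet, and the spread among HFD KO libraries was the widest. The log2 fold change was 0.92 under the high fat diet (SE 0.16, adjusted p = 0.00483, edgeR), and the 0.38 under the standard diet did not pass (SE 0.16, adjusted p = 0.476).

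Acsl5 (ENSMUSG00000024981, chromosome 19, 55251938 to 55297720, plus strand), a synthetase of mitochondria and endoplasmic reticulum, had 64.5, 48.8 and 53.5 CPM in HFD KO libraries, against 36.4, 36.4 and 33.4 CPM in HFD WT libraries. It had 52.4, 50.6 and 56.1 CPM in STD KO libraries, against 40.6, 35.9 and 34.1 CPM in STD WT libraries. Again no KO library overlapped WT under either diet. On the log2 scale KO exceeded WT by 0.65 under the high fat diet (SE 0.13, adjusted p = 0.00931, edgeR) and 0.52 under the standard diet, where it did not pass (SE 0.12, adjusted p = 0.0705). A fit of the 2 high fat groups alone gave an adjusted p of 0.0701 in edgeR for the first of these.

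Acsl3 (ENSMUSG00000032883, chromosome 1, 78657825 to 78707743, plus strand), the synthetase of endoplasmic reticulum and lipid droplets, moved the other way. It had 5.93, 6.15 and 7.13 CPM in HFD KO libraries, against 10.8, 13.2 and 11.7 CPM in HFD WT libraries. In STD KO libraries it had 8.91, 6.94 and 8.89 CPM, against 14.5, 10.6 and 6.85 CPM in STD WT libraries. The high fat groups were apart, while the standard diet groups overlapped through STD WT 3, which held the lowest standard diet value. The sum of 13 markers of acinar (exocrine) cells was also lowest in STD WT 3. It was 30821, 28456 and 6690 CPM in STD WT libraries 1 to 3, and 21074, 10467 and 27690 CPM in STD KO libraries. Under the high fat diet it was 18599 to 24820 CPM in KO and 22874 to 37213 CPM in WT. The part of acinar RNA in the Acsl3 level was not tested. Its log2 fold change was -0.90 under the high fat diet (SE 0.25, adjusted p = 0.0492, edgeR) and -0.37 under the standard diet (SE 0.24, adjusted p = 0.863, edgeR). The first lay at the threshold: it passed in 3 of the 12 fits that left out 1 library (those without STD WT 1, STD WT 3 or HFD KO 3), and its adjusted p was 0.0676 without both STD WT 3 and HFD KO 2.

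Set against each other after their values were seen, Acsl4 and Acsl3 stood at a ratio in FPKM of 5.11 ± 1.45 in HFD KO and 1.45 ± 0.21 in HFD WT islets, and 2.76 ± 0.57 in STD KO and 1.82 ± 0.87 in STD WT islets (SD, n = 3 each). The high fat values did not overlap and the standard diet values did. Acsl1, the main synthetase of liver and fat, averaged 18.7 ± 2.99 CPM in HFD KO and 22.6 ± 1.27 CPM in HFD WT libraries and did not pass under either diet.

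The thioesterases Acot1 of the cytosol and Acot2 of mitochondria, which release free acids again, share 24.5% of the 50-base words of Acot2, so their counts are uncertain. Acot2 had 5.56, 6.28 and 4.80 CPM in HFD KO libraries, against 6.97, 10.8 and 7.32 CPM in HFD WT libraries. The groups were apart, with a log2 fold change of -0.59 that did not pass (SE 0.21, adjusted p = 0.111, edgeR). Acot1 ranged from 1.84 to 11 CPM over the 12 libraries with all groups overlapping.

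In the carnitine shuttle, 0 of 4 members passed between KO and WT under either diet by edgeR. Cpt1a, the outer-membrane enzyme that malonyl-CoA inhibits, had 58.4, 44.3 and 62.5 CPM in HFD KO libraries, against 62.5, 70.9 and 86.1 CPM in HFD WT libraries. It had 67.4, 40.0 and 64.1 CPM in STD KO libraries, against 42.8, 49.5 and 50.8 CPM in STD WT libraries. All HFD KO libraries were at or below the lowest HFD WT library, and the standard diet groups overlapped. Its log2 fold change was -0.41 under the high fat diet (SE 0.21, adjusted p = 0.249, edgeR) and 0.26 under the standard diet (SE 0.21, adjusted p = 0.947, edgeR). Their difference, -0.67, did not pass the interaction test either (adjusted p = 0.621, edgeR). Cpt2, its inner-membrane partner, averaged 30.5 ± 4.46 CPM in HFD KO and 36.4 ± 2.68 CPM in HFD WT libraries, and 31.6 ± 2.30 CPM in STD KO and 34.7 ± 4.28 CPM in STD WT libraries (SD, n = 3 each). These groups overlapped, as did those of Cpt1c and of the acetyltransferase Crat, which stayed between 9.09 and 12.1 CPM in every library.

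The mitochondrial spiral itself showed small differences. Of the acyl-CoA dehydrogenases, ordered from very long to short chains as Acadvl, Acadl, Acadm and Acads, none of the 4 passed between genotypes under either diet by edgeR, and none had an unadjusted p under 0.05. The same held for the carnitine shuttle, and DESeq2's Wald test called no gene of either group between genotypes. Acadl, the long-chain enzyme and a known substrate of the SIRT3 protein in mouse liver, had 50.6, 52.0 and 40.0 CPM in HFD KO libraries, against 53.1, 58.7 and 52.8 CPM in HFD WT libraries. The groups were just apart, with a log2 fold change of -0.21 (SE 0.13, adjusted p = 0.35, edgeR). Acadm, the medium-chain enzyme, averaged 30.3 ± 2.93 CPM in HFD KO and 27.5 ± 3.79 CPM in HFD WT libraries, and 28.3 ± 2.96 CPM in STD KO and 32.6 ± 8.93 CPM in STD WT libraries (SD, n = 3 each). Its log2 fold change was 0.14 (SE 0.19) under the high fat diet and -0.20 (SE 0.19) under the standard diet. These assays measured mRNA only, and acetylation of the enzymes was not measured.

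Hadha and Hadhb encode the alpha and beta subunits of the trifunctional protein from neighbouring genes on chromosome 5. Hadhb (ENSMUSG00000059447, 30155248 to 30184593, plus strand) had 163, 142 and 131 CPM in HFD KO libraries, against 119, 115 and 106 CPM in HFD WT libraries. It had 119, 122 and 110 CPM in STD KO libraries, against 92.4, 94.0 and 104 CPM in STD WT libraries. KO libraries lay above WT libraries under both diets by narrow margins. Its log2 fold change was 0.36 under the high fat diet (SE 0.12, adjusted p = 0.0833, edgeR) and 0.27 under the standard diet (SE 0.12, adjusted p = 0.501, edgeR), and neither passed. Of its 50-base words, 18.1% are shared with Gm13910, so its count is uncertain.

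Hadha had 174, 149 and 155 CPM in HFD KO libraries, against 141, 133 and 140 CPM in HFD WT libraries. In STD KO libraries it had 146, 155 and 131 CPM, against 124, 128 and 141 CPM in STD WT libraries. The high fat groups were apart and the standard diet groups overlapped. Its log2 fold changes of 0.21 (SE 0.11, adjusted p = 0.293, edgeR) and 0.14 (SE 0.11, adjusted p = 0.97) did not pass. Hadh averaged 688 ± 128 CPM in HFD KO and 648 ± 138 CPM in HFD WT libraries, and 606 ± 76.4 CPM in STD KO and 611 ± 142 CPM in STD WT libraries (SD, n = 3 each), with wide overlap. The hydratase Echs1, the thiolase Acaa2, the auxiliary enzymes Eci1 and Decr1 for unsaturated chains, and the electron carriers Etfa, Etfb and Etfdh did not pass under either diet.

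**Figure D4:**
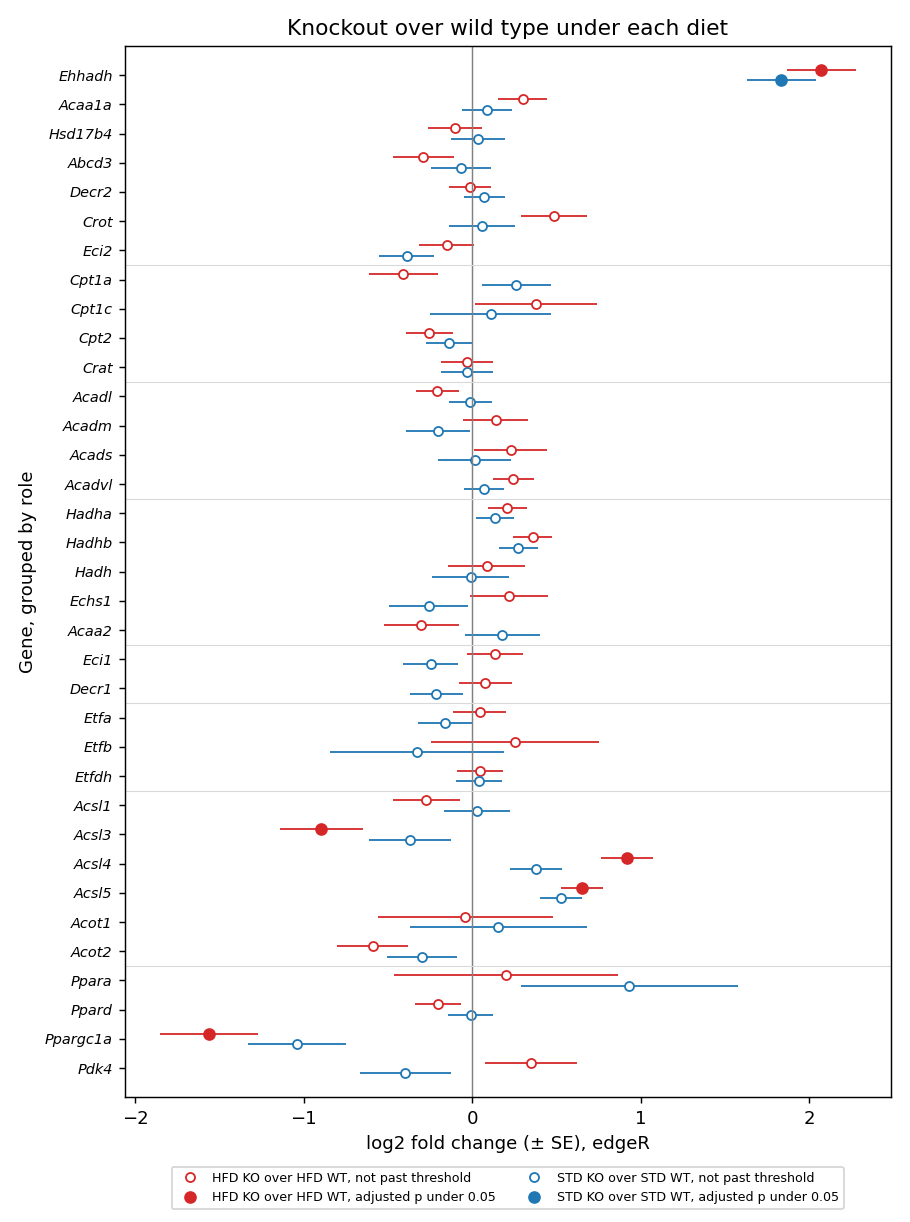
Log2 fold change of KO over WT with its SE from edgeR for each of the 35 genes, under the high fat diet (red, upper of each pair) and the standard diet (blue, lower), with filled points past an adjusted p of 0.05. Ehhadh is filled under both diets at 2.07 and 1.83, Acsl3, Acsl4, Acsl5 and Ppargc1a under the high fat diet only, and most of the rest lie within 0.5 of 0.

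Among the regulators, Ppargc1a (ENSMUSG00000029167, chromosome 5, 51454250 to 51567726, minus strand) encodes PGC-1alpha, the coactivator of PPAR receptors and of mitochondrial gene expression. It had 4.45, 2.21 and 3.30 CPM in HFD KO libraries, against 11.3, 7.09 and 11.1 CPM in HFD WT libraries. It had 3.45, 2.33 and 3.27 CPM in STD KO libraries, against 6.56, 6.78 and 5.35 CPM in STD WT libraries. All 6 KO libraries lay below all 6 WT libraries, at counts of 32 to 210 per library. The log2 fold change was -1.56 under the high fat diet (SE 0.29, adjusted p = 0.00795, edgeR), and the -1.04 under the standard diet did not pass (SE 0.29, adjusted p = 0.143, edgeR). Without STD WT 3 and HFD KO 2 together, the high fat value was -1.30 with an adjusted p of 0.0364 in edgeR.

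Ppara had a log2 fold change of 0.20 (SE 0.66) under the high fat diet and 0.93 (SE 0.64) under the standard diet, and the second of these rested on STD KO 1 at 2.32 CPM, against 0.284 and 0.733 CPM in the other two STD KO libraries. STD KO 1 is the library with the highest Alb, Fgb and Apoa1, and the part of hepatocyte RNA in its Ppara level was not tested. Ppard averaged 31.9 ± 5.36 CPM in HFD KO and 36.7 ± 1.71 CPM in HFD WT libraries and did not pass. Pdk4, the kinase that blocks pyruvate dehydrogenase when fat is burned and a known PPAR target, had 30.7, 22.8 and 18.9 CPM in HFD KO libraries, against 18.4, 18.1 and 20.2 CPM in HFD WT libraries. It had 25.7, 31.3 and 29.4 CPM in STD KO libraries, against 22.0, 38.7 and 53.2 CPM in STD WT libraries. The genotypes overlapped under both diets, and the STD WT libraries were the most spread.

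Across the members, the median log2 fold change of KO over WT was 0.08 under the high fat diet and 0.01 under the standard diet, beside 0.00 and -0.02 for all genes tested. The median size of the change regardless of sign was 0.24 for the members against 0.32 for all genes under the high fat diet, and 0.16 against 0.17 under the standard diet. Groups that did not overlap were found for 12 members under the high fat diet, 7 with KO above and 5 below, where 24.5% of all genes had such groups (11.2% above and 13.3% below). Under the standard diet they were found for 7 members, 4 with KO above and 3 below, where 14.8% of all genes had them (7.52% above and 7.32% below). Under both diets KO lay above WT without overlap for Ehhadh, Acsl4, Acsl5 and Hadhb, where 3.71% of all genes did so, and below WT for Acot2 and Ppargc1a, where 3.2% did so. The summed level of all 35 genes was 1970 to 2461 CPM in HFD KO, 1924 to 2196 CPM in HFD WT, 1887 to 2067 CPM in STD KO and 1744 to 2031 CPM in STD WT libraries, with overlap between genotypes under both diets.

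The mean of both diets' genotype effects, which uses the same libraries again, called 6 of 35 members (4 higher and 2 lower), where 7.77% of all genes were called (4.17% higher and 3.6% lower). These were the 5 of the high fat comparison and Hadhb, at a log2 fold change of 0.31 (SE 0.08, adjusted p = 0.0378, edgeR). Ehhadh stood at 1.95 (SE 0.14, adjusted p = 9.62e-06, edgeR), Acsl4 at 0.65, Acsl5 at 0.59, Acsl3 at -0.63 and Ppargc1a at -1.30. Hadhb passed there in 1 of the 12 fits that left out 1 library, that without HFD KO 3, and Acsl3 in 2 of them, those without STD WT 3 or HFD KO 3. In the high fat comparison, leaving out HFD KO 3 raised the count of members called to 8, adding Acaa1a, Crot and Hadhb.

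High fat feeding changed no member past the threshold in either genotype. Between HFD WT and STD WT, 0 of 35 members passed, where 0% of all genes did by edgeR, and 3 had an unadjusted p under 0.05, where 4.74% of all genes had. DESeq2's Wald test called 43 genes in this comparison and none of the members. The 3 were Pdk4 at a log2 fold change of -1.01 (SE 0.27, adjusted p = 0.765, edgeR), Cpt1a at 0.62 (SE 0.21, adjusted p = 0.958, edgeR) and Ppargc1a at 0.66 (SE 0.28). Each had HFD WT and STD WT libraries that did not overlap, Pdk4 with the high fat libraries below and the others with them above. Such groups were found for 8 members, where 9.59% of all genes had them.

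Between HFD KO and STD KO, 0 of 35 members passed by edgeR, where 0.0435% of all genes did, and 6 had an unadjusted p under 0.05, where 12.5% of all genes had. DESeq2's Wald test called 140 genes and none of the members. The 6 were Acsl4 at a log2 fold change of 0.54 (SE 0.16, adjusted p = 0.34, edgeR), Crot at 0.45, Etfa at 0.39, Acadvl at 0.35, Hadhb at 0.32 and Ppard at -0.31. HFD KO and STD KO libraries did not overlap for 4 members, Etfb, Acadvl, Acsl4 and Hadhb, all with the high fat libraries above, where 12.1% of all genes had groups that did not overlap. Without HFD KO 3, Etfa passed with an adjusted p of 0.0375 in edgeR. Acadvl shares 42.9% of its exonic bases with Dvl2 on the opposite strand, and the strand setting of the counts is not given in the sources used here.

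The members' median log2 fold change with the diet was 0.14 in KO and 0.06 in WT, beside -0.03 and 0.01 for all genes. In the interaction of genotype with diet 0 of 35 members passed, where 0% of all genes did by edgeR, and 2 had an unadjusted p under 0.05, Cpt1a at -0.67 and Acsl4 at 0.54, where 7.91% of all genes had. DESeq2's Wald test called 31 genes there and none of the members. The passing of Acsl4, Acsl5, Acsl3 and Ppargc1a under the high fat diet and not under the standard diet is therefore not shown to be a difference between the diets.

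**Figure D5:**
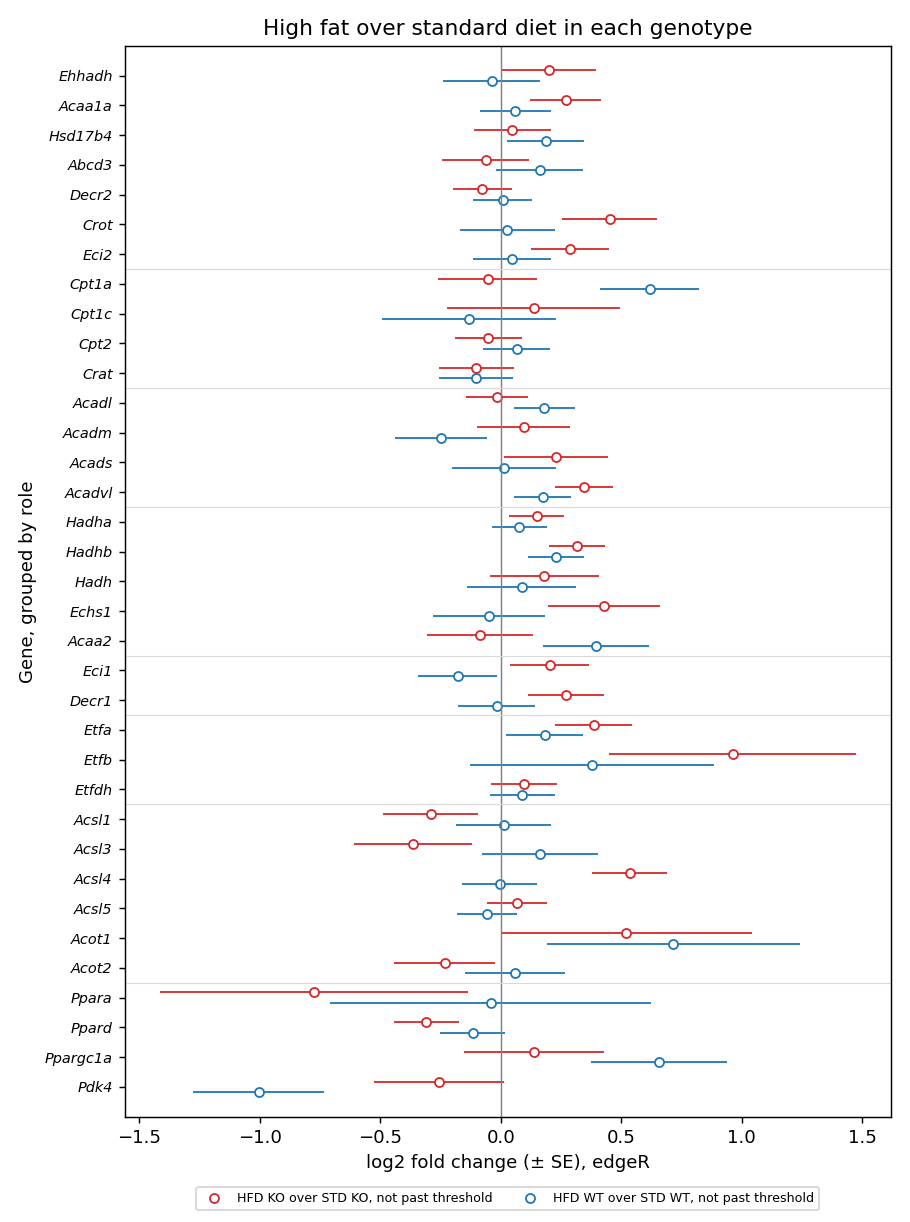
Log2 fold change of the high fat over the standard diet with its SE from edgeR for each of the 35 genes, in KO (upper of each pair) and in WT (lower), all points open because none passed an adjusted p of 0.05. Pdk4 in WT is the lowest at -1.01 and Ehhadh lies near 0, at 0.20 in KO and -0.04 in WT.

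Other genes of the pathway were examined as lists chosen by function. Of 37 tested genes for further enzymes and carriers of fatty acid oxidation, 0 passed under the standard diet by edgeR, where 1 had an unadjusted p under 0.05, and 1 was lower under the high fat diet. This was Abcd2, a peroxisomal importer of very long chains, at 2.34 ± 0.51 CPM in HFD KO and 5.62 ± 0.83 CPM in HFD WT libraries (SD, n = 3 each), a log2 fold change of -1.26 (SE 0.34, adjusted p = 0.0446, edgeR). Of 27 genes of peroxisome formation and other matrix enzymes, 0 had even an unadjusted p under 0.05 under the standard diet in edgeR, and 1 was higher under the high fat diet. This was Pecr, a peroxisomal enoyl-CoA reductase, at 44.0 ± 11.7 CPM in HFD KO and 26.3 ± 3.82 CPM in HFD WT libraries (SD, n = 3 each), a log2 fold change of 0.74 (SE 0.19, adjusted p = 0.042, edgeR). Of all genes tested, 7.4% passed under the high fat diet and 1.71% under the standard diet. Under the standard diet 8.66% had an unadjusted p under 0.05. The number of calls in lists of this size therefore does not set Ehhadh apart from other peroxisomal genes. By size, log2 fold changes of the 27 peroxisome genes ran from -0.42 to 0.74 under the high fat diet. Under the standard diet they ran from -0.29 to 0.45. Those of the 37 further enzymes and carriers ran from -1.28 to 1.05 and from -0.88 to 1.37. Ehhadh stood at 2.07 and 1.83.

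From a list of further targets and partners of the PPAR receptors, 1 gene is given here. It does not stand for the list, whose count of calls is not reported here. Under the high fat diet 7.4% of all genes tested passed. Txnip, a thioredoxin-binding protein that glucose induces in beta cells, was at 775 ± 174 CPM in HFD KO and 335 ± 50.4 CPM in HFD WT libraries (SD, n = 3 each), a log2 fold change of 1.21 (SE 0.21, adjusted p = 0.0055, edgeR). The 6 genes of ketone body metabolism had no call under either diet by edgeR. None of them had an unadjusted p under 0.05 between genotypes. Of all genes tested, 24.3% had one under the high fat diet and 8.66% under the standard diet. The median log2 fold changes of these 4 lists lay between 0.01 and 0.08 under the high fat diet and between -0.03 and 0.00 under the standard diet.

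Markers of other cells were read beside these results. The summed level of 10 macrophage markers, all found and none at 0, was 347 to 399 CPM in HFD KO and 161 to 257 CPM in HFD WT libraries, and 262 to 332 CPM in STD KO and 215 to 257 CPM in STD WT libraries. It was thus higher in KO without overlap under both diets, as Ehhadh, Acsl4, Acsl5 and Hadhb were. Under the high fat diet 3 of the 10 passed, all higher in KO, where 7.4% of all genes did. Under the standard diet 0 passed, where 1.71% of all genes did. Of 10 adipocyte markers, Fabp4, which macrophages and endothelial cells also express, made up most of the summed level, at 38.8, 35.0 and 29.4 CPM in HFD KO, against 21.1, 13.3 and 25.2 CPM in HFD WT libraries. Adipoq, the adipocyte hormone adiponectin, was at 0 to 0.206 CPM in all libraries but STD WT 2, where it was at 1.65 CPM. Summed levels of 5 alpha cell markers were apart under the standard diet, at 17716 to 26098 CPM in STD KO and 27697 to 35132 CPM in STD WT libraries, and overlapped under the high fat diet. Of 9 beta cell markers, 1 passed under the high fat diet and 2 for the mean of both diets, all lower in KO. The shares over all genes tested were 7.4% and 7.77%. Ucn3, a marker of mature beta cells, had 253, 274 and 272 CPM in HFD KO libraries, against 693, 472 and 590 CPM in HFD WT libraries, a log2 fold change of -1.13 (adjusted p = 0.00459, edgeR). Slc2a2, the glucose transporter, had 366, 233 and 408 CPM in HFD KO libraries, against 792, 496 and 786 CPM in HFD WT libraries, and passed for the mean of both diets at -0.76 (adjusted p = 0.0437, edgeR). Pdx1 and Mafa were also lower in HFD KO without overlap and did not pass. G6pc2, of the same list, went the other way without overlap. It had 3837, 3053 and 3088 CPM in HFD KO libraries, against 2698, 1095 and 1819 CPM in HFD WT libraries. Its log2 fold change of 0.83 did not pass (adjusted p = 0.206, edgeR). The insulin genes Ins1 and Ins2 did not pass under either diet, at 0.58 and -0.31 under the high fat diet. The part of these markers' cells in the members' changes was not tested.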

How the data were processed

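Total RNA of islets, isolated by collagenase and a density gradient per the labels, was measured in 12 libraries, 3 in each of 4 groups taken from the labels. The authors deposited read counts per gene, and FPKM values as deposited equalled that count divided by the gene's length and the library's total in each of 257939 nonzero cases (relative tolerance 0.001). Per the submitters' processing notes, mm10, TopHat2, Cufflinks and DESeq were used, without versions or roles. How reads were counted, on which annotation and with which strand setting, was not given in the sources used here. Symbols were joined by Ensembl ID (54409 of 54532 found) and coordinates by GENCODE M21 (54495 found).

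Counts were tested with edgeR 4.0.16 (limma 3.58.1, R 4.3.3): filterByExpr (minimum count 10, minimum total 15), TMM scaling, and a robust quasi-likelihood fit with 1 mean per group over all 12 libraries. Contrasts were KO against WT in each diet, diet in each genotype, their interaction and the mean of both diets, each Benjamini-Hochberg adjusted over 16076 genes with a threshold of 0.05. The common biological coefficient of variation was 0.307, and replicates differed by far more than counting error (chi-square per degree of freedom 26.6 to 101). Same-numbered libraries of the 2 high fat groups deviated together (correlations of 0.515, 0.410 and 0.336), a pairing seen in the data and not given by the labels. All values printed come from the fit without pairs unless a replicate block is named.

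The alternatives were scaling by DESeq2's size factors, DESeq2 1.42.0 with its Wald test, fits without a filter or with a stricter one (1 CPM in 6 libraries), a correction for gene length, the compared groups alone, a replicate block, leaving out each library, and a fit without both STD WT 3 and HFD KO 2. Promoter windows came from RefSeq. Members passing in any contrast were given with values per library and the genotype test under each diet. Other members were given in full or in part. The list of further PPAR targets and partners is given in part only, since a withheld result of it is not reported here. Members and lists were chosen with earlier results of these data known.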

Additional observations from a re-analysis of the deposited data

How the results depend on the processing

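No member called in a comparison changed direction there under any alternative run. Between STD KO and STD WT, DESeq2's Wald test called 3 members in place of 1, adding Acsl5 (adjusted p = 0.00367) and Ppargc1a (adjusted p = 0.0296). Between HFD KO and HFD WT, a fit of these groups alone called 3 in place of 5, with Acsl5 at an adjusted p of 0.0701 and Acsl3 at 0.0505 in edgeR. Leaving out 1 library gave 4 to 8 members there, 1 under the standard diet, 4 to 6 for the mean of both diets, and 0 to 1 for the diet in KO, the last 2 and the high fat count being highest without HFD KO 3. Over the 21 alternatives of the high fat comparison, the adjusted p was at most 0.00303 for Ehhadh, 0.0429 for Ppargc1a and 0.0434 for Acsl4, while that of Acsl3 ran from 0.016 to 0.18.

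With a replicate block over all 4 groups, edgeR called 4 members in the high fat comparison (Acsl3 at an adjusted p of 0.0671) and 4 for the mean of both diets (Acsl3 at 0.0772 and Hadhb at 0.0508). The block within the high fat groups alone, added after seeing the data, called the same 5 members, and the block changed no other call. Of all 18 same-numbered pairs, 4 had correlations over 0.1. Depth limits Ppara and Etfb, with at most 45 and 23 counts per library.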
